A study of Danio rerio with 15 samples.

Results

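The suppressors of cytokine signalling measured here are the zebrafish genes socs1a, socs3a and socs3b, chosen as every probe set whose only annotated gene symbol is 1 of these 3. The rule found 3 of 8793 genes, measured by 4 of the 15502 probe sets tested. There are 2 probe sets for socs1a, called the first and the second here in the order of their names, and 1 each for socs3a and socs3b. Expression was measured on 15 one-colour Affymetrix arrays, each hybridised with RNA from the pooled whole larvae of 1 beaker. Larvae were placed at 72 h after fertilisation for 96 h in fluoxetine at 25 µg/L, fluoxetine at 250 µg/L, sertraline at 25 µg/L, sertraline at 250 µg/L, or fish water with no drug (control), with 3 beakers in each of the 5 groups. Fluoxetine and sertraline are antidepressants of the selective serotonin reuptake inhibitor class. No group was fed during the exposure and, per the labels, larvae of all groups, controls included, lived on yolk. The larvae came from adults with no history of contaminant exposure, and no strain was named in the labels. A beaker holds many larvae, so the spread between arrays is that between pools and not that between animals.

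Suppressor of cytokine signalling (SOCS) proteins are the feedback brakes of the JAK and STAT pathway. A cytokine or hormone binds its receptor, the receptor-bound JAK kinases phosphorylate STAT transcription factors, and the STATs switch on target genes that include the SOCS genes themselves. The SOCS protein then docks on the active receptor or kinase through its SH2 domain, and its SOCS box recruits a ubiquitin ligase. In mammals SOCS1 is known for restraining interferon signalling and SOCS3 for restraining signalling by interleukin 6, leptin and granulocyte colony-stimulating factor. The zebrafish genes socs3a and socs3b are duplicates that correspond to the single SOCS3 gene of mammals.

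The arrays within a group correlated over all probe sets at r = 0.986 to 0.992 at 25 µg/L fluoxetine and at 0.994 to 0.997 in the other groups. In that group replicate 3 stood apart in its marker levels, with a hepatocyte marker mean of 6.88, against 9.16 and 9.24 in replicates 1 and 2, and an exocrine pancreas marker mean of 5.81, against 8.52 and 8.07. Without it 1034 probe sets (6.67%) were called at 25 µg/L fluoxetine, and 392 (2.53%) with it. The number of arrays limits the precision of all values. Within groups the SDs of the SOCS probe sets were 0.278 and 0.531 for socs1a, 0.441 for socs3a and 0.179 for socs3b, each above the median of 0.139 over all probe sets. Whether the probes of socs3a and socs3b also bind each other's transcripts was not tested.

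In every pool of larvae exposed to 250 µg/L of either drug, the first socs1a and the socs3b probe set had high values. These were higher than in any pool exposed to 25 µg/L or to no drug. For socs1a the lowest of the 6 arrays at 250 µg/L was 6.09 and the highest of the other 9 was 5.88, on the log2 scale as deposited. For socs3b these values were 5.15 and 5.08. This separation was noticed after the values had been seen, and it was found in 5 of 15502 probe sets (0.0323%), of which these are 2. Another of the 5 was nfkbiaa, which encodes an inhibitor of NF-kappaB (mean 8.54 at 250 µg/L, 8.09 in the other arrays), and 2 had no single gene symbol. The second socs1a probe set and the socs3a probe set did not separate the arrays in this way. Other probe sets had all 6 arrays at 250 µg/L below the other 9, among them paqr5a, rgs12a, galnt11 and mbpa. How often such a separation arises without an effect of the concentration was not tested.

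**Figure D1:**
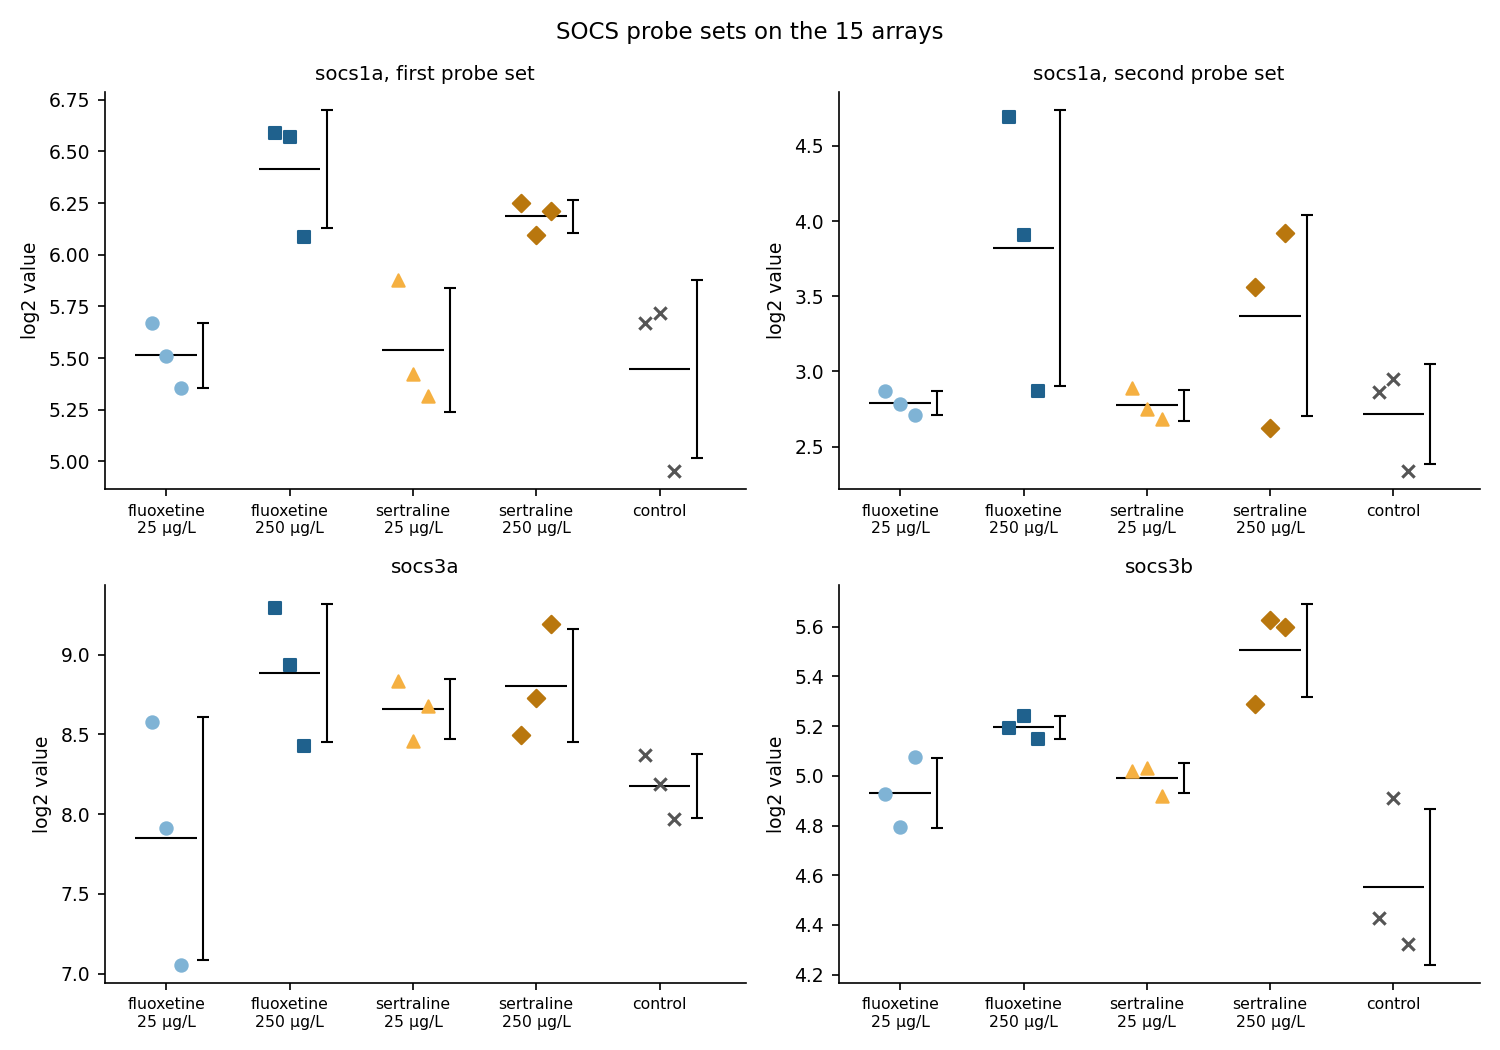
Log2 values of the 4 SOCS probe sets on the 15 arrays (y axis) by group (x axis, 3 arrays each). Points are arrays, horizontal lines are group means and bars beside them are 1 SD. In the panels of the first socs1a probe set and of socs3b all 6 arrays at 250 µg/L lie above all 9 others.

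The first probe set of socs1a, a homologue of mammalian SOCS1, gave log2 values of 6.59, 6.57 and 6.09 at 250 µg/L fluoxetine, against 5.67, 5.72 and 4.95 in control. All 3 exposed arrays lay above all 3 control arrays. With 25 µg/L fluoxetine the values were 5.67, 5.51 and 5.36, within the range of the control arrays. In sertraline they were 5.88, 5.42 and 5.32 at 25 µg/L and 6.25, 6.10 and 6.21 at 250 µg/L. The 25 µg/L arrays overlapped control, whereas those at 250 µg/L all lay above it. The array of control replicate 3, at 4.95, was the lowest of the 15.

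The second socs1a probe set was dim, with a mean of 3.09 over all arrays, which placed it among the dimmest 40% of probe sets (means under 3.90). Its values were 4.69, 3.90 and 2.87 at 250 µg/L fluoxetine and 3.56, 2.63 and 3.92 at 250 µg/L sertraline, against 2.87, 2.95 and 2.34 in control. In each of these exposed groups 2 arrays lay above every control array and 1 did not. Both 25 µg/L groups were lower: the values ran from 2.71 to 2.87 in fluoxetine and from 2.69 to 2.89 in sertraline, within the control range. The probe sets of socs1a correlated at r = 0.83 over the 15 arrays and at r = 0.64 after the group means were removed. They share RNA, so this describes their likeness and is not a repeat of the result.

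For socs3a the values were 9.29, 8.93 and 8.43 at 250 µg/L fluoxetine, against 8.37, 8.19 and 7.97 in control, with no overlap. The values at 25 µg/L fluoxetine were 8.58, 7.91 and 7.06, the widest scatter of any group for this gene (SD 0.762, n = 3), and the lowest value, in replicate 3, was also the lowest of the 15. In sertraline the values were 8.84, 8.46 and 8.68 at 25 µg/L and 8.50, 8.73 and 9.19 at 250 µg/L. Both sertraline groups lay wholly above control, and they overlapped each other.

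For socs3b, the other duplicate, the values were 5.19, 5.24 and 5.15 at 250 µg/L fluoxetine and 5.29, 5.63 and 5.60 at 250 µg/L sertraline, against 4.43, 4.91 and 4.32 in control. The 25 µg/L values were 4.93, 4.80 and 5.08 in fluoxetine and 5.02, 5.03 and 4.92 in sertraline. Of the 12 drug arrays, 11 lay above the highest control array and all 12 above the control mean. The exception was replicate 2 at 25 µg/L fluoxetine. Control replicate 2 was the highest of the 3 control arrays. The share of all probe sets with as many drug arrays above control was not counted.

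At the higher fluoxetine concentration 2 of the 4 SOCS probe sets rose relative to control, and 0.458% of all 15502 probe sets rose by the same criterion, an adjusted p under 0.05 in limma with Benjamini-Hochberg correction over all of them. The first socs1a probe set averaged 6.42 ± 0.28 at 250 µg/L fluoxetine and 5.45 ± 0.43 in control (SD, n = 3 each), a log2 difference of 0.97 ± 0.21 (SE; limma adjusted p = 0.0461), a fold of 1.96. The socs3b probe set averaged 5.19 ± 0.05 at 250 µg/L fluoxetine and 4.55 ± 0.31 in control (SD, n = 3 each), a difference of 0.64 ± 0.14 (SE; limma adjusted p = 0.0449), a fold of 1.56. The second socs1a probe set differed by 1.11 ± 0.39 (limma adjusted p = 0.281) and socs3a by 0.71 ± 0.33 (0.468), and these did not pass. Their unadjusted 95% intervals were 0.25 to 1.96 and 0.0014 to 1.42. Whole larvae contain every tissue, so more cells of a type and more RNA per cell cannot be told apart. The median difference of the 4 probe sets was 0.84, beside -0.02 over all probe sets. Groups without overlap and higher in the drug were found for 6.86% of all probe sets, and here for 3 of 4.

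The calls at 250 µg/L fluoxetine rested on small margins. With 1 array left out at a time, socs1a passed only when fluoxetine 250 replicate 3 was the array left out, and socs3b only when control replicate 2 was. For socs1a the limma adjusted p was 0.18 and 0.147 without fluoxetine 250 replicates 1 and 2, and 0.0648, 0.0626 and 0.125 without control replicates 1, 2 and 3. For socs3b it was 0.131, 0.131 and 0.0931 without fluoxetine 250 replicates 1, 2 and 3, and 0.152 and 0.17 without control replicates 1 and 3. Over all 6 such fits the log2 difference stayed at 0.72 to 1.13 for socs1a and at 0.53 to 0.82 for socs3b.

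Sertraline at 250 µg/L gave higher means than control for all 4 probe sets, and none passed. The socs3b probe set averaged 5.50 ± 0.19 at 250 µg/L sertraline and 4.55 ± 0.31 in control (SD, n = 3 each), a difference of 0.95 ± 0.14 (SE; 95% interval 0.65 to 1.25), a fold of 1.93. It ranked 3 among 15502 probe sets by unadjusted p (1.31e-05), and its limma adjusted p was 0.0651. The first socs1a probe set averaged 6.19 ± 0.08 at 250 µg/L sertraline and 5.45 ± 0.43 in control, a difference of 0.74 ± 0.21 (limma adjusted p = 0.448). The second differed by 0.65 ± 0.39 and socs3a by 0.63 ± 0.33 (0.839 and 0.819). In limma 0 of 15502 probe sets passed in this comparison (percentage called 0%), while 983 (6.34%) had an unadjusted p under 0.05, among them 2 of these 4. The socs3b value passed without control replicate 2 (1.13, adjusted p = 0.0052), with the lowest 40% of probe sets left out (0.017), with a trended and robust prior (0.0322) and with array weights (0.00955). Arrays higher in the drug with no overlap made up 4.5% of all probe sets, and 3 of these 4.

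**Figure D2:**
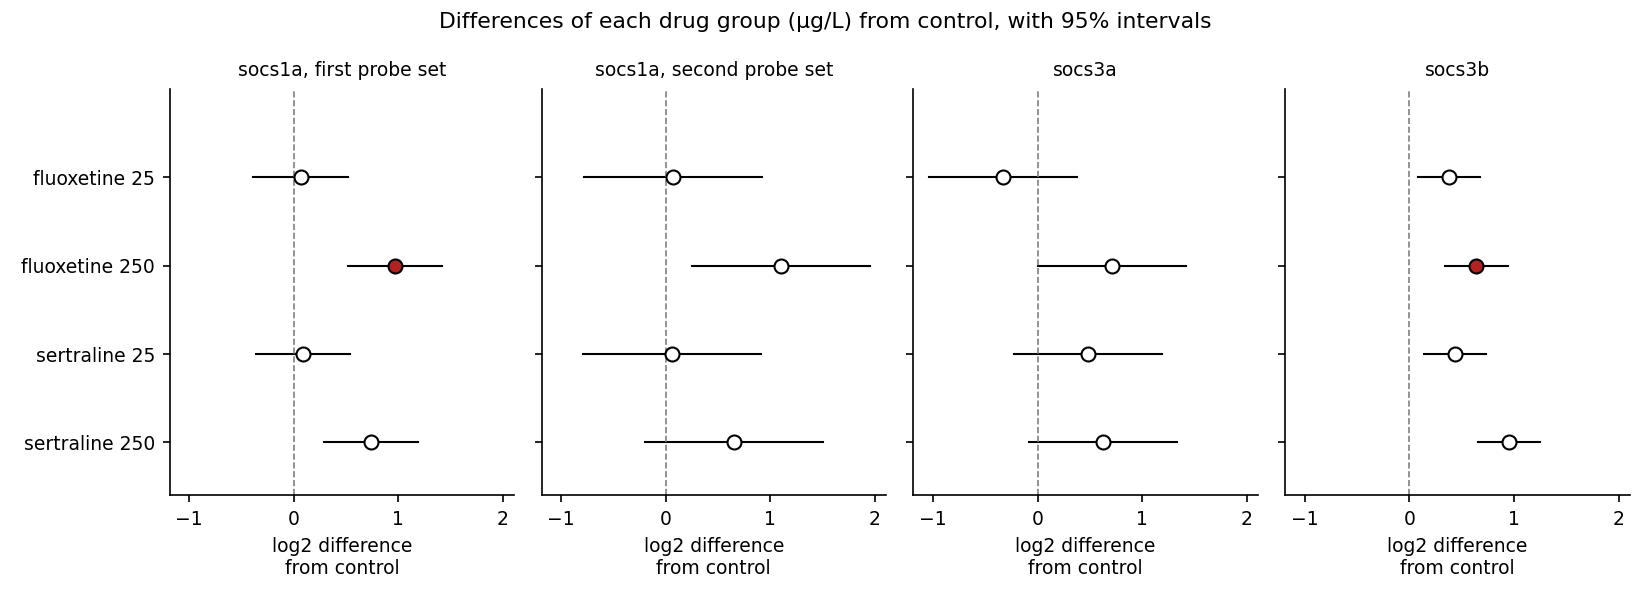
Log2 differences of each drug group from control (x axis) for the 4 SOCS probe sets, with groups down the page and concentrations in µg/L. Points are estimates of the fit to 15 arrays, lines are unadjusted 95% intervals, and filled points passed at an adjusted p under 0.05 (the first of socs1a, and socs3b, at 250 µg/L fluoxetine).

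None of the 4 probe sets passed with either drug at 25 µg/L, where 0.864% of all probe sets rose in fluoxetine and 0.00645% in sertraline. The socs3b probe set averaged 4.93 ± 0.14 at 25 µg/L fluoxetine and 4.55 ± 0.31 in control (SD, n = 3 each), a difference of 0.38 ± 0.14 (SE; limma adjusted p = 0.18). In larvae at 25 µg/L sertraline it averaged 4.99 ± 0.06 and differed from control by 0.44 ± 0.14 (limma adjusted p = 0.848). All 3 arrays at 25 µg/L sertraline lay above all controls for socs3b and for socs3a, as in 3.34% of all probe sets. Of the 4 probe sets only socs3b had an unadjusted p under 0.05 at 25 µg/L (0.0166 in fluoxetine and 0.00745 in sertraline), as had 19.2% of all probe sets in fluoxetine and 3.99% in sertraline. Among the alternatives run it passed in fluoxetine only without control replicate 2 (0.56, adjusted p = 0.0239). The first socs1a probe set differed by 0.07 ± 0.21 in fluoxetine and 0.09 ± 0.21 in sertraline, with intervals of -0.38 to 0.52 and -0.36 to 0.54. The second differed by 0.07 and 0.06, each with an SE of 0.39. For socs3a the difference was -0.33 ± 0.33 in fluoxetine and 0.48 ± 0.33 in sertraline, and without fluoxetine 25 replicate 3 the fluoxetine value became 0.07.

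Averaged over the 4 drug groups, socs3b rose by 0.60 ± 0.11 (SE) relative to control (5.16 in 12 drug arrays and 4.55 in 3 control arrays; limma adjusted p = 0.0262). In this comparison 0.148% of all probe sets rose. Leaving out control replicate 1 (adjusted p = 0.137) or 3 (0.194), sertraline 25 replicate 2 (0.0539) or fluoxetine 250 replicate 2 (0.0508) left it short of the threshold. The first socs1a probe set differed by 0.47 ± 0.16 (0.417), the second by 0.47 ± 0.31 (0.833) and socs3a by 0.37 ± 0.26 (0.864). All comparisons with control share the same 3 control arrays, so these averages are not separate evidence.

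A test of any difference among the 5 groups called the first socs1a probe set (F = 9.31, limma adjusted p = 0.0434) and socs3b (F = 13.1, adjusted p = 0.0159), where 2.79% of all probe sets were called. The second socs1a probe set (F = 3.07, 0.269) and socs3a (F = 3.73, 0.228) did not pass. The socs3b call was lost when control replicate 1 (0.0521) or sertraline 250 replicate 3 (0.0566) was left out. The socs1a call was lost for 10 of the 15 arrays when each was left out in turn, with adjusted p from 0.0519 to 0.117. The 10 arrays were fluoxetine 25 replicates 1 and 2, fluoxetine 250 replicates 1 and 2, sertraline 25 replicates 2 and 3, all 3 of sertraline 250, and control replicate 1.

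In order of group means, socs3b was highest in sertraline 250 (5.50), followed by fluoxetine 250 (5.19), sertraline 25 (4.99), fluoxetine 25 (4.93) and control (4.55). The first 2 of these groups each lay wholly above the next in order, while the arrays of sertraline 25 overlapped those of fluoxetine 25, and these overlapped control. The first socs1a probe set ran from fluoxetine 250 (6.42) and sertraline 250 (6.19), which overlapped, to sertraline 25 (5.54), fluoxetine 25 (5.51) and control (5.45), which also overlapped. Only the gap of 0.65 between sertraline 250 and sertraline 25 had no overlap. For socs3a the order was fluoxetine 250 (8.89), sertraline 250 (8.81), sertraline 25 (8.66), control (8.18) and fluoxetine 25 (7.85). Its only neighbours without overlap were sertraline 25 and control. All neighbours overlapped for the second socs1a probe set. The share of all probe sets with such gaps between neighbouring groups was not counted.

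The concentrations of each drug were compared directly. For the first socs1a probe set 250 µg/L exceeded 25 µg/L by 0.90 ± 0.21 in fluoxetine (SE; limma adjusted p = 0.125) and by 0.65 ± 0.21 in sertraline (0.72), and the arrays of the 2 concentrations did not overlap in either drug. For socs3b the differences were 0.26 ± 0.14 (0.287) and 0.51 ± 0.14 (0.494), also without overlap. For socs3a they were 1.04 ± 0.33 (0.232) and 0.15 ± 0.33 (1.00), with overlap in both drugs. The second socs1a probe set differed by 1.03 ± 0.39 (0.246) and 0.60 ± 0.39 (1.00), again with overlap. None of these passed, in comparisons that called 0.245% of all probe sets higher in fluoxetine and 0% in sertraline. An unadjusted p under 0.05 was found for 3 of the 4 in fluoxetine, beside 18.8% of all probe sets. In sertraline it was found for 2 of the 4, beside 754 probe sets (4.86%). The share of all probe sets whose arrays did not overlap between the 2 concentrations was not counted, so the lack of overlap is only a description. The test of whether the concentration difference itself differed between the drugs called none of the 4 and 0.00645% of all probe sets. Its estimates were 0.26 ± 0.29 for the first socs1a probe set, 0.44 ± 0.55 for the second, 0.89 ± 0.46 for socs3a and -0.25 ± 0.19 for socs3b, as fluoxetine minus sertraline (limma adjusted p 0.536 to 0.719).

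The drugs were also set against each other at each matched concentration and time, as fluoxetine minus sertraline, in 2 pairs of groups and with p-values adjusted over all 15502 probe sets within each pair. At 250 µg/L the difference was 0.23 for the first socs1a probe set (95% interval -0.22 to 0.68), 0.08 for socs3a (-0.63 to 0.79) and -0.31 for socs3b (-0.61 to -0.01). All 3 socs3b arrays in fluoxetine lay below all 3 in sertraline, and its limma adjusted p was 0.389. The share of all probe sets without overlap between the drugs was not counted, so the lack of overlap is only a description. In limma 1 of the 4 SOCS probe sets had an unadjusted p under 0.05 at 250 µg/L, beside 1863 of all 15502. The differences at 25 µg/L were -0.03 for the first socs1a probe set (-0.48 to 0.42), -0.06 for socs3b (-0.36 to 0.24) and -0.81 for socs3a (-1.52 to -0.10, limma adjusted p = 0.142). The socs3a difference passed without fluoxetine 25 replicate 1 (-1.17, adjusted p = 0.0474). The second socs1a probe set differed by 0.45 at 250 µg/L (-0.40 to 1.30) and by 0.01 at 25 µg/L (-0.84 to 0.86). None of the 8 differences passed, where 1.37% of all probe sets were called at 250 µg/L and 2.1% at 25 µg/L. The intervals are wide, so these results do not show that the drugs act alike on the SOCS genes.

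The SOCS genes were then set beside the rest of the pathway. Of 12 other family members listed, 2 had a probe set with a single symbol, cisha and cishb, which encode relatives of mammalian CISH, an inhibitor of STAT5 signalling. Neither passed in any comparison with control. The smallest p of the pair was for cisha at 25 µg/L sertraline, where it gave 7.58, 6.84 and 7.12, against 7.80, 7.88 and 7.73 in control (-0.62 ± 0.16, limma adjusted p = 0.535). Their median difference at 250 µg/L fluoxetine was -0.02, beside -0.02 over all probe sets.

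Among the kinases and transcription factors upstream of the SOCS genes, none of the 3 measured JAK genes of 5 listed (jak1, jak2a and jak2b) and neither of the 2 STAT genes of 8 listed (stat3 and stat5a) passed in any of the 4 comparisons with control. The kinase gene jak1 had the smallest p of its group, with a difference of 0.29 ± 0.12 at 250 µg/L fluoxetine (limma adjusted p = 0.365). The STAT5 gene stat5a gave 4.54, 4.60 and 4.49 at 25 µg/L fluoxetine, against 4.99, 5.04 and 5.63 in control (-0.68 ± 0.23, limma adjusted p = 0.162). Of the 6 cytokine and hormone receptor genes measured of 37 listed, 1 rose, the growth hormone receptor gene ghrb at 25 µg/L fluoxetine, where 0.864% of all probe sets rose. It gave 8.58, 8.31 and 8.27 there, against 7.85, 7.97 and 7.38 in control (0.65 ± 0.14, limma adjusted p = 0.0221). It no longer passed when fluoxetine 25 replicate 1 (0.0681) or 2 (0.0509) or control replicate 3 (0.0548) was left out.

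None of the 4 ligand genes measured of 33 listed (ifnphi1, gh1, prl and epoa) passed, and all 4 were among the dimmest 40% of probe sets, where a difference may go unseen. The smallest p was for the prolactin gene prl at 250 µg/L sertraline (-0.18 ± 0.07, limma adjusted p = 0.728).

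Of 12 other negative regulators of the pathway (17 listed), 2 fell at 25 µg/L fluoxetine and 1 at 250 µg/L, none rose, and none passed in sertraline. In these comparisons 1.66% and 0.697% of all probe sets fell, and at 25 µg/L sertraline 0.0581%. The gene ptpn11b, a duplicate of the gene for the SHP2 tyrosine phosphatase, gave 6.37, 6.61 and 6.72 at 250 µg/L fluoxetine, against 7.57, 7.40 and 7.39 in control. The groups did not overlap, and the difference was -0.89 ± 0.12 (SE; limma adjusted p = 0.0038), kept without any 1 of the 6 arrays (0.0063 to 0.0236). The gene gave, at 25 µg/L fluoxetine, 6.73, 6.86 and 7.10 (-0.56 ± 0.12, limma adjusted p = 0.0324). That call was kept only without fluoxetine 25 replicate 3 (0.0109) and lost when any other array was left out (0.0738 to 0.105). The other duplicate, ptpn11a, did not fall at 250 µg/L fluoxetine. Its difference from control there was 0.24 ± 0.13 (SE; limma adjusted p = 0.596), with overlap. Whether the level of both duplicates together changed was not tested. The gene ptpn1, which encodes the tyrosine phosphatase PTP1B, gave 5.17, 5.13 and 5.27 at 25 µg/L fluoxetine, against 5.62, 5.72 and 5.87 in control (-0.55 ± 0.10, limma adjusted p = 0.0092). It did not pass without control replicate 3 (0.0507).

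Of 25 measured genes known in mammals as STAT3 targets (29 listed), 1 fell at 25 µg/L fluoxetine, where 1.66% of all probe sets fell, and none passed in the other 3 comparisons. The fall was in pim3, a PIM kinase gene, with 5.07, 4.44 and 4.86 at 25 µg/L fluoxetine, against 5.48, 5.61 and 5.23 in control (-0.65 ± 0.14, limma adjusted p = 0.0257). It no longer passed when fluoxetine 25 replicate 2 (0.0647), control replicate 1 (0.0704) or control replicate 2 (0.121) was left out. Of the 25 genes 2 passed without fluoxetine 25 replicate 1 and 2 without replicate 3, in fits that called 2.85% and 6.67% of all probe sets. The median difference of the 25 genes was 0.08 at 250 µg/L fluoxetine and 0.15 at 250 µg/L sertraline, beside -0.02 and -0.04 over all probe sets. Their array means were 6.03 to 6.28 at 250 µg/L fluoxetine, against 5.89 to 5.99 in control, without overlap. In the other 3 drug groups they overlapped control. The 25 genes include fga, fgb and fgg, which are also among the hepatocyte markers. None of 13 interferon-responsive genes (32 listed) passed, and 1 of the 13, isg20, had a mean above the dimmest 40%. It had the smallest p, at 250 µg/L fluoxetine (-0.19 ± 0.08, limma adjusted p = 0.351). The array means of the 13 genes were 3.19 to 3.39 at 25 µg/L fluoxetine, against 3.06 to 3.16 in control, without overlap. Their median difference there was 0.15, beside 0.06 over all probe sets. In the other 3 drug groups the array means overlapped control. None of 11 genes of the growth hormone and insulin-like growth factor axis (13 listed) passed either (1 without fluoxetine 25 replicate 3). The growth factor gene igf1 gave the smallest p of these. Its difference was -0.26 ± 0.06 at 25 µg/L sertraline (limma adjusted p = 0.358). It was dim, with means of 2.73 there and 2.98 in control. At 250 µg/L fluoxetine igf1 differed by -0.22 ± 0.06 (limma adjusted p = 0.121) and igfbp1b by 1.40 ± 0.34 (0.0831), each without overlap. The array means of the 11 genes were 5.50 to 5.69 at 250 µg/L fluoxetine, against 5.25 to 5.42 in control, without overlap. Of the 11, igfbp1b and igfbp1a (0.64 ± 0.41) had the largest differences there, while igf1, igf1ra, igfbp5b and igfals were lower than in control. The median difference of the 11 genes was 0.13, beside -0.02 over all probe sets. At 25 µg/L sertraline the array means of the 11 genes were 5.12 to 5.24, wholly below control. At 25 µg/L fluoxetine the array means of the receptor and ligand genes lay wholly above control, and those of the 2 STAT genes wholly below. The median differences there were 0.10, 0.09 and -0.36, beside 0.06 over all probe sets. At 250 µg/L sertraline the array means of the ligand genes lay wholly below control. Their median difference there was -0.04, beside -0.04 over all probe sets. How often lists of other genes would lie apart in this way was not counted.

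**Figure D3:**
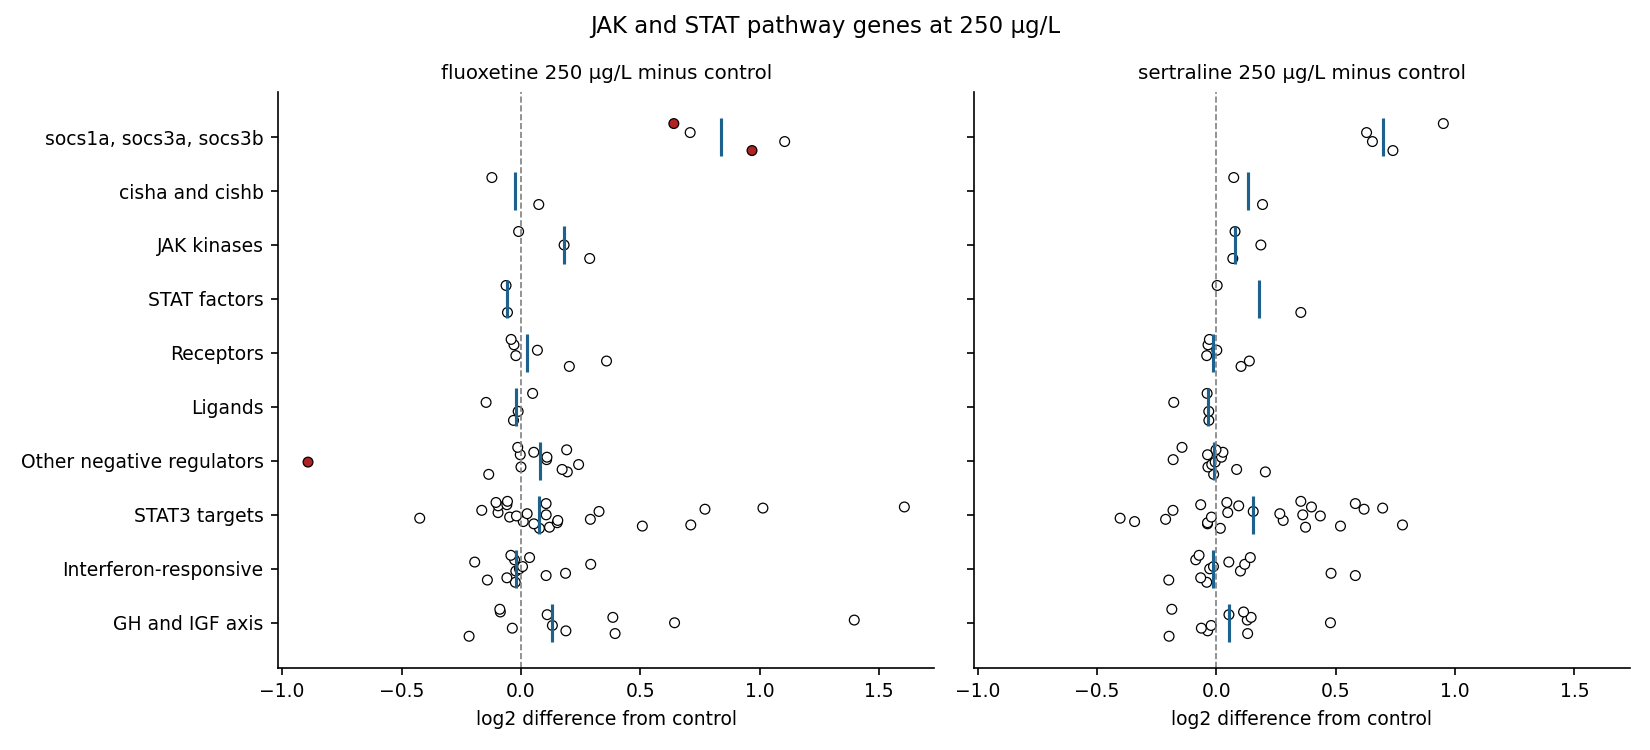
Log2 differences from control (x axis) at 250 µg/L fluoxetine and 250 µg/L sertraline for the 4 SOCS probe sets (top row) and the measured genes of 9 pathway lists below. Points are genes, filled where the adjusted p was under 0.05, and bars are medians. The filled point at -0.89 is ptpn11b.

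The genes whose values were most like those of each SOCS probe set over the 15 arrays were found by Pearson's r among probe sets with 1 symbol, given as a description, since arrays of a group share their exposure. For socs3a these were dusp1 (r = 0.96, Spearman's rho = 0.90), which encodes a phosphatase of MAP kinases, zgc:162730 (0.90 and 0.82) and the early growth-arrest gene btg2 (0.90 and 0.76). The likeness to dusp1 was 0.96 after group means were removed and 0.90 without the 2 arrays farthest from the socs3a median. None of the 3 passed in a comparison with control. The gene dusp1 differed at 250 µg/L fluoxetine by 0.40 ± 0.26 and at 25 µg/L fluoxetine by -0.31 ± 0.26, the same signs as for socs3a.

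For the first socs1a probe set the most like genes were pmaip1 (r = 0.82, rho = 0.81), which encodes a pro-apoptotic protein of the BCL2 family, nucb1 (0.80 and 0.79) and the growth-arrest gene gadd45ab (0.79 and 0.80). After group means were removed r was 0.56, 0.65 and 0.495. For the second probe set they were the organic cation transporter gene slc22a2 (0.86 and 0.75), the clotting factor gene f5 (0.85 and 0.49) and a second probe set of pmaip1 (0.80 and 0.67). This pmaip1 probe set (2.20 to 2.75 on the 15 arrays) and slc22a2 (group means 2.84 to 3.73) were dim. For socs3b the most like genes were tmem256 (0.90 and 0.87), the mitochondrial fatty acid oxidation gene hadhaa (0.79 and 0.53) and the muscle differentiation gene myog (0.76 and 0.65). After group means were removed r was 0.89, 0.78 and 0.73 for the genes of the second socs1a probe set, and 0.72, 0.76 and 0.28 for those of socs3b. Without the 2 arrays farthest from the median of the SOCS probe set, r fell to 0.57 for f5, 0.49 for the second pmaip1 probe set and 0.52 for myog, and was 0.69 to 0.82 for the others of these 3 probe sets. None of these genes passed in a comparison with control. The SOCS probe sets of different genes correlated at r = 0.46 to 0.69 over the 15 arrays. The duplicates socs3a and socs3b correlated at r = 0.46, and at 0.01 after group means were removed, and the first socs1a probe set correlated at 0.69 with each of them.

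**Figure D4:**
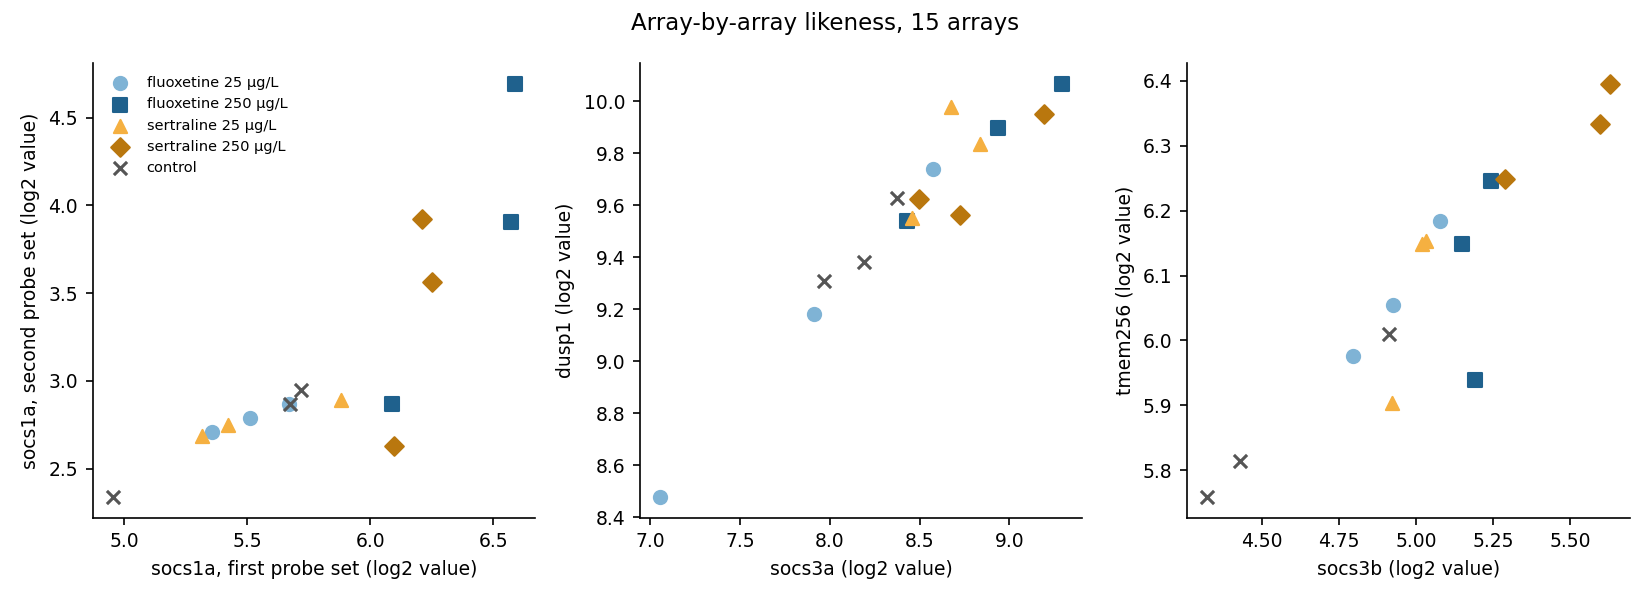
Log2 values on the 15 arrays of the 2 socs1a probe sets (left), of socs3a and dusp1 (middle, r = 0.96) and of socs3b and tmem256 (right, r = 0.90). Each point is an array, coloured and shaped by group, and in the left panel 2 arrays at 250 µg/L lie low on the second socs1a probe set (2.87 and 2.63).

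Marker levels of several cell types and a measure of RNA quality were set beside these results. The array means of the 12 skeletal muscle markers ran from 13.35 to 13.48 over all groups, and from 13.39 to 13.46 in control. Those of the 3 lens markers ran from 11.36 to 11.67 at 250 µg/L fluoxetine, against 11.06 to 11.32 in control, without overlap. At 250 µg/L sertraline the lens means ran from 10.56 to 11.12. At 25 µg/L they were 11.14 to 11.39 in fluoxetine and 10.82 to 11.14 in sertraline. These last 3 groups overlapped control. The 9 hepatocyte markers, none of which passed, had array means of 9.57, 8.99 and 8.39 at 250 µg/L fluoxetine, against 8.32, 7.76 and 7.46 in control, without overlap. At 250 µg/L sertraline they ranged from 8.14 to 8.92. Fluoxetine 25 replicate 3, with the lowest socs3a value of all arrays, had the lowest hepatocyte mean of its group. The lowest hepatocyte mean of all arrays was in sertraline 25 replicate 2. There socs3a was 8.46, the lowest of its group and above every control array (7.97 to 8.37). At 25 µg/L sertraline the hepatocyte means were 7.95, 6.13 and 7.63, and socs3a, at 8.84, 8.46 and 8.68, lay wholly above control. Within control, fluoxetine 250 and sertraline 25 the 3 arrays ranked alike by hepatocyte mean and by socs3a. In fluoxetine 25 and sertraline 250 they did not. The 12 leukocyte markers, 4 of them above the dimmest 40%, had means of 3.60 to 3.79 at 250 µg/L fluoxetine and 3.73 to 3.85 at 250 µg/L sertraline, against 3.56 to 3.72 in control. The means at 250 µg/L sertraline lay wholly above control, by a narrow margin. There 3 of the 12 leukocyte markers had an unadjusted p under 0.05, beside 6.34% of all probe sets. Of these markers coro1a had the smallest p, at 250 µg/L sertraline (0.63 ± 0.17, limma adjusted p = 0.414), and its other probe set gave -0.05. The 12 exocrine pancreas markers ranged from 5.87 to 7.17 at 250 µg/L fluoxetine and 5.81 to 8.52 at 25 µg/L fluoxetine, against 4.62 to 6.03 in control. All markers had values above 0 on every array, as had all probe sets (the lowest value was 0.737). A value above 0 therefore does not show that a marker was detected. No marker of these 5 lists passed in a comparison with control. Without fluoxetine 25 replicate 3 all 12 pancreas markers and 2 leukocyte markers passed at 25 µg/L fluoxetine. That fit called 6.67% of all probe sets. Without control replicate 1 there was 1 pancreas marker, in a fit that called 2.44% of all probe sets. The GAPDH 3' minus 5' difference, a sign of RNA quality, was 1.53 to 2.36 at 25 µg/L and 1.16 to 1.74 at 250 µg/L fluoxetine, against 1.55 to 1.73 in control. In sertraline it was 1.95 to 2.17 at 25 µg/L and 1.77 to 3.16 at 250 µg/L, and both groups lay wholly above control. At 250 µg/L sertraline it was 1.89, 3.16 and 1.77 in replicates 1, 2 and 3. On the same arrays socs3b was 5.29, 5.63 and 5.60, and the second socs1a probe set 3.56, 2.63 and 3.92. Exact two-sided permutation tests gave p = 0.4 at both fluoxetine concentrations and p = 0.1 at both sertraline concentrations, and with 3 arrays in each group p cannot go below 0.1. The part of these measures in the SOCS values was not tested.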

How the data were processed

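The authors deposited log2 values, which were taken without further normalization, with array medians from 4.57 to 4.65. Per the submitters' processing notes the tools were GCRMA and Partek, with no role or version. No genome build was given in the sources used here, and no coordinate or sequence was used. Of 15617 probe sets, 115 Affymetrix controls were left out. Symbols came from the platform annotation (10795 probe sets with 1 symbol, 135 with several, 4572 with none), and 10711 were checked by Entrez number.

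In limma 3.58.1 all 15 arrays entered 1 fit with a mean for each group (R 4.3.3; 10 residual and 2.37 prior degrees of freedom), with Benjamini-Hochberg adjustment within each comparison over 15502 probe sets and a threshold of 0.05. The model was tested on simulated data. Figures used Python 3.11.15 and matplotlib 3.10.9. The members, lists and tests were chosen with earlier results of these data known. From each list, members past the threshold were named (at most 4), or else the 1 with the smallest p, and the 3 most like genes per SOCS probe set. The gene igfbp1b was named in addition, after its values had been seen. Where several probe sets measured a list gene, that of the highest mean was used. Replicates are beakers per the labels. The deviations of same-numbered drug and control arrays correlated at r from -0.26 to 0.31, positive for most fluoxetine pairs and negative for all sertraline pairs. Whether same-numbered arrays belong together was not tested. Alternatives were median centring, quantile normalization, a filter on dim probe sets, a trended and robust prior, array weights, a replicate block, only the arrays compared, and each array left out in turn.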

Additional observations from a re-analysis of the deposited data

How the results depend on the processing

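Each SOCS value was recomputed under 7 other settings and with each array left out. At 250 µg/L fluoxetine the first socs1a probe set lost its call with quantile normalization (0.95, adjusted p = 0.064) and with only the 6 arrays of the comparison (0.97, 0.195). There socs3b lost it with median centring (0.63, 0.0686), quantile normalization (0.63, 0.0757), the replicate block (0.64, 0.0631) and only the 6 arrays (0.64, 0.185). Leaving out 1 array gave 0.72 to 1.13 for socs1a and 0.53 to 0.82 for socs3b.

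At 250 µg/L sertraline socs3b passed with the lowest 40% of probe sets left out (0.95), a trended and robust prior (0.95) and array weights (1.00), and leaving out 1 array gave 0.83 to 1.13. At 25 µg/L fluoxetine the range for socs3b was 0.26 to 0.56. For the mean of the drug groups its range was 0.49 to 0.78. In the test of any difference F for socs1a was 8.31 with quantile normalization (adjusted p = 0.063) and 6.80 to 12.9 without 1 array, and for socs3b 9.63 to 30.0.

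Array weights took the excess of 250 over 25 µg/L sertraline past the threshold for socs1a (0.77, 0.0425) and socs3b (0.60, 0.0253). The replicate block did so for socs1a in fluoxetine (0.90, 0.0402). In the labels same-numbered arrays share only a number.

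The socs3a drug difference at 25 µg/L kept its sign in all fits run (-1.17 to -0.41 without 1 array) and passed without fluoxetine 25 replicate 1.

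Other differences, near 0 or with wide ranges, changed sign, and none passed with the turned sign. For the first socs1a probe set array weights gave -0.016 at 25 µg/L fluoxetine, -0.094 at 25 µg/L sertraline and 0.078 for fluoxetine minus sertraline at 25 µg/L, with ranges without 1 array of -0.18 to 0.20, -0.16 to 0.23 and -0.14 to 0.14. For the second probe set quantile normalization gave -0.013 at 25 µg/L fluoxetine (range -0.12 to 0.19) and array weights -0.037 at 25 µg/L sertraline (range -0.13 to 0.17). Its drug difference at 25 µg/L was -0.025 with median centring and -0.11 with quantile normalization (range -0.031 to 0.070). For socs3a the ranges were -0.69 to 0.067 at 25 µg/L fluoxetine and -0.045 to 0.30 for 250 minus 25 µg/L sertraline. At 250 µg/L its drug difference was -0.017 with array weights and -0.12 to 0.31 without 1 array. For socs3b the drug difference at 25 µg/L ranged from -0.13 to 0.010. The causes were not tested.

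Of all probe sets, 392 were called at 25 µg/L fluoxetine (90 with only the 6 arrays, 225 to 1034 without 1 array), 179 at 250 µg/L (276 with array weights, 61 with only the 6 arrays, 74 to 149 without 1 array), 10 at 25 µg/L sertraline (0 to 25) and 0 at 250 µg/L (up to 28, with array weights).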
